A study of Homo sapiens with 25 samples.

Results

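The 7 genes GRIK2, PLPPR4, NEFL, TNFRSF11B, CEMIP, PTGES and SHISA2 were chosen by their normalised counts from the 58302 genes counted in hiF-T cells, because these were higher in the library from cells under DOT1L inhibition than in the library from cells in DMSO. That contrast chose them, with no stated threshold, so it is described below without a test. The hiF-T line is a human fibroblast-like line made from BJ skin fibroblasts. It is labelled WT and carries an inducible hTERT transgene (the catalytic subunit of telomerase), which the treated and control cells share. Poly(A) RNA of 25 bulk libraries was sequenced. The drug set held 1 library of DOT1L inhibition (replicate 1), 2 of LSD1 inhibition (replicates 1 and 2), 1 of DMSO (replicate 1) and 1 of no drug (replicate 2). The sort set, from untreated cells, held 4 biological replicates each of ungated cells and of cells gated for low, midlow, midhigh and high dye accumulation. The labels name neither the compounds, doses and times nor the dye, and the series' design calls the sort one by proliferation status.

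DOT1L is the histone methyltransferase that marks the core of histone H3 along transcribed genes. LSD1, the product of KDM1A, is a demethylase that acts on the tail of histone H3. Inhibitors of either enzyme are used in work on cell identity, including the reprogramming of fibroblasts. Of the 7 genes, 3 are best known from neurons: GRIK2 encodes a subunit of kainate-type glutamate receptors, PLPPR4 a membrane protein of excitatory synapses related to the lipid phosphate phosphatases, and NEFL the light chain of neurofilaments. Another 2 act outside the cell: TNFRSF11B encodes osteoprotegerin, a secreted decoy receptor for the ligands RANKL and TRAIL, and CEMIP a protein that skin fibroblasts need to break down hyaluronan. PTGES encodes the inducible synthase of prostaglandin E, and SHISA2 encodes a protein of the endoplasmic reticulum that, in Xenopus and mouse, holds back receptors for Wnt and FGF.

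In the GRCh38 annotation of GENCODE release 29, all 7 are protein-coding genes. GRIK2 (ENSG00000164418) spans chr6:101181257-102070083 on the plus strand, PLPPR4 (ENSG00000117600) chr1:99263953-99309590 on the plus strand and CEMIP (ENSG00000103888) chr15:80779343-80951776 on the plus strand. PTGES (ENSG00000148344) spans chr9:129738331-129753047, SHISA2 (ENSG00000180730) chr13:26044597-26051031, TNFRSF11B (ENSG00000164761) chr8:118923557-118952200 and NEFL (ENSG00000277586) chr8:24950955-24957110, all on the minus strand. The library kit does not mark the strand, so reads in stretches shared with an antisense gene cannot be assigned to a strand. CEMIP shares 224 of its 7621 exon bases with MESD on the opposite strand, which had 1453 counts under DOT1L inhibition and 1420 counts in DMSO. NEFL shares 490 of its 4329 exon bases with AC107373.2, which had 0 counts in both libraries. PTGES, SHISA2, TNFRSF11B, PLPPR4 and GRIK2 share no exon base with another annotated gene.

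Gene counts summed to between 15015039 and 20030093 per library, and a count of 0 allowed a level of up to 3 counts, or 0.150 to 0.200 counts per 1e+06 (CPM). CPM values below were scaled with TMM factors over all 25 libraries, and intervals and floors cover counting error only. All 10 fibroblast markers had counts in at least 1 library of every group. Their summed levels were 6402 to 11764 CPM per library, most of it from COL1A1, COL1A2 and VIM. The mRNA of the inhibited enzyme does not check an inhibitor's label: DOT1L stood at 33.0 CPM under DOT1L inhibition, against 34.0 CPM in DMSO and 47.1 CPM in no drug. In bulk RNA, more cells that express a gene and more RNA per cell cannot be told apart. Libraries of 1 group were not copies of each other (chi-square per degree of freedom of 7.40 for the closest pair).

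Since the 7 genes were high together in 1 library, the 250 bases before the RefSeq transcription start are shown for 4 of them (GRCh38.p14). A RefSeq window was matched for 5 of the 7 genes. RefSeq starts can differ from the GENCODE spans above: the GRIK2 window lies within its span, and the SHISA2 window lies upstream of its span. Which start the cells used was not tested. The PLPPR4 window and the window of a further GRIK2 start lie mostly within annotated exons, with 250 and 197 exon bases, and are not shown. Capitals mark TATAAA (a core promoter element), GGGCGG (the Sp-family site), CCAAT (the NF-Y site) or TGANTCA (the AP-1 site) on either strand, and no matches overlapped. The windows are GRIK2 at chr6:101393458-101393707 on the plus strand, CEMIP at chr15:80779120-80779369 on the plus strand, PTGES at chr9:129753043-129753292 on the minus strand and SHISA2 at chr13:26052017-26052266 on the minus strand, each read 5′ to 3′.
GRIK2: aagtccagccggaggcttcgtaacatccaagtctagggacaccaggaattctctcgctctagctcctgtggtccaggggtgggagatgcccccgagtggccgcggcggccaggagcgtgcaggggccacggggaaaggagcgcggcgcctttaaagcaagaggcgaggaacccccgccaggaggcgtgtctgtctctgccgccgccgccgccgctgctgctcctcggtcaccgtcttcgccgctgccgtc
CEMIP: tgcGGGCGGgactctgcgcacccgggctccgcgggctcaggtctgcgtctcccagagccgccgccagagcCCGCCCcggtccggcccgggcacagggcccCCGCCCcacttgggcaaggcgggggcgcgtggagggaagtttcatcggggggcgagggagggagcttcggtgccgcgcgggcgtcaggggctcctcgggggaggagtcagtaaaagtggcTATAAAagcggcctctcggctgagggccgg
PTGES: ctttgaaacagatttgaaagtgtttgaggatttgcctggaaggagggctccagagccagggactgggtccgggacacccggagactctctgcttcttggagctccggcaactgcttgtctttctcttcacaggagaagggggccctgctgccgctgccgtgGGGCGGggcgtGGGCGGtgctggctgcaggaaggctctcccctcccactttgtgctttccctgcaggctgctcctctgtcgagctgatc
SHISA2: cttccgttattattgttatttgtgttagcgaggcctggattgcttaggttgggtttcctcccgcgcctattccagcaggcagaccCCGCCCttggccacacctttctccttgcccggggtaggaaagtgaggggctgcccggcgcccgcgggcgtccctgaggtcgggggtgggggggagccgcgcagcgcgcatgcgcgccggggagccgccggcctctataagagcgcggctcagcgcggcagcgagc

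These windows had a GC content of 68% (GRIK2), 74.4% (CEMIP), 61.2% (PTGES) and 67.6% (SHISA2), against a median of 58% over 35116 RefSeq windows of the same length. They held 25 (GRIK2), 28 (CEMIP), 9 (PTGES) and 26 (SHISA2) CpG pairs, against a median of 11. A TATAAA match occurred in CEMIP alone of the 4, at -30 from the start, and 10.7% of all windows hold one at any position on either strand. GGGCGG occurred 3 times in CEMIP (at -247, -180 and -150), 2 times in PTGES (at -89 and -78) and 1 time in SHISA2 (at -165), and 42.6% of all windows hold it. Neither CCAAT, found in 32.0% of all windows, nor TGANTCA, found in 6.57%, occurred in the 4 windows. The 4 sequences thus had no motif of this search in common. A match is a description of letters and not a binding site.

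Under DOT1L inhibition the 3 neuronal genes stood several-fold above DMSO. GRIK2 had 189 counts (10.8 CPM) under DOT1L inhibition, against 33 counts (2.03 CPM) in DMSO and 46 counts (2.82 CPM) in no drug. Its fold over DMSO was 5.30 (95% counting interval 3.65 to 7.92), and over no drug 3.82 (2.76 to 5.40). Both control libraries lay close together for this gene, and the treated library lay well above both. NEFL had 137 counts (7.80 CPM) under DOT1L inhibition, against 19 counts (1.17 CPM) in DMSO and 6 counts (0.367 CPM) in no drug. With a fold of 6.67 over DMSO (4.11 to 11.4), NEFL differed most of the 7, and its fold over no drug was 21.2 (9.51 to 58.9). The wide interval of the second fold comes from the 6 counts beneath it. PLPPR4 had 293 counts (16.7 CPM) under DOT1L inhibition, against 58 counts (3.57 CPM) in DMSO and 137 counts (8.39 CPM) in no drug. Its fold was 4.67 over DMSO (3.52 to 6.31) but 1.99 over no drug (1.62 to 2.45), because the control libraries differed.

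Among these 3 libraries, both genes of proteins that act outside the cell stood highest under DOT1L inhibition and higher in no drug than in DMSO. TNFRSF11B had 206 counts (11.7 CPM) under DOT1L inhibition, against 42 counts (2.58 CPM) in DMSO and 129 counts (7.90 CPM) in no drug. Its fold was 4.54 over DMSO (3.24 to 6.49) and 1.49 over no drug (1.19 to 1.87), the smallest of the 7 against that library. CEMIP had 184 counts (10.5 CPM) under DOT1L inhibition, against 45 counts (2.77 CPM) in DMSO and 74 counts (4.53 CPM) in no drug. Its fold was 3.78 over DMSO (2.72 to 5.37) and 2.31 over no drug (1.76 to 3.07).

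PTGES and SHISA2 showed the reverse order of the controls. PTGES had 199 counts (11.3 CPM) under DOT1L inhibition, against 39 counts (2.40 CPM) in DMSO and 16 counts (0.979 CPM) in no drug. Its fold was 4.72 over DMSO (3.34 to 6.84) and 11.6 over no drug (6.95 to 20.6). SHISA2 had 225 counts (12.8 CPM) under DOT1L inhibition, against 57 counts (3.51 CPM) in DMSO and 33 counts (2.02 CPM) in no drug. Its fold was 3.65 over DMSO (2.72 to 4.97) and 6.34 over no drug (4.39 to 9.44).

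**Figure D1:**
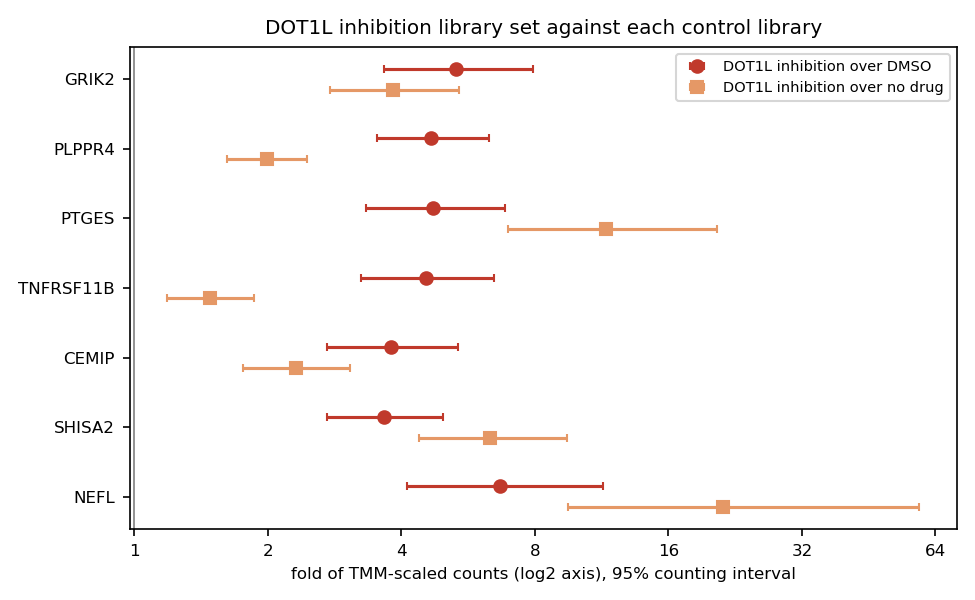
Fold of TMM-scaled counts in the DOT1L inhibition library over DMSO (circles) and over no drug (squares) for the 7 genes on a log2 axis, with 95% counting intervals as bars. The intervals lie above 1, which the choice of genes high in the DOT1L inhibition library favours, and the fold over no drug ranges from 1.49 for TNFRSF11B to 21.2 for NEFL.

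On the log2 scale with a prior count of 2, the 7 ratios over DMSO ran from 1.83 (SHISA2) to 2.61 (NEFL). They held ranks 15 (NEFL), 29 (GRIK2), 35 (PLPPR4), 37 (PTGES), 41 (TNFRSF11B), 84 (CEMIP) and 90 (SHISA2) among 14990 genes, whose median ratio was 0.00. All 7 were at least 2-fold higher than in DMSO, where 4.31% of all genes were, which the choice of members fixes. Over no drug, a library the choice did not use, 5 of 7 were at least 2-fold higher, where 4.94% of all genes were. Both counts share the DOT1L inhibition library, in which the genes were chosen to be high, so nothing is read from either count. PLPPR4 and TNFRSF11B fell short of that size, with log2 ratios of 0.97 and 0.55 over no drug. The controls themselves differed, as no drug over DMSO had log2 ratios of 1.58 (TNFRSF11B), 1.21 (PLPPR4), 0.69 (CEMIP) and 0.46 (GRIK2), and of -0.75 (SHISA2), -1.19 (PTGES) and -1.39 (NEFL). No drug is replicate 2 and DMSO replicate 1, so the vehicle and the replicate cannot be told apart.

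Set beside all 25 libraries, the DOT1L inhibition library was the highest for 6 of the 7 genes. Among all genes with enough counts it was the highest for 9.24%, but the genes were chosen for being high in this library, so nothing is read from the count. As a ratio to the next library, NEFL had the widest gap, with 7.80 CPM under DOT1L inhibition and 2.46 CPM in the next library, high dye replicate 3. PTGES followed, at 11.3 CPM, with 3.95 CPM in LSD1 inhibition replicate 1 as the next value. PLPPR4 had the narrowest, at 16.7 CPM, with 13.8 CPM in LSD1 inhibition replicate 2. TNFRSF11B ranked 6 of 25, because 5 sort libraries were higher, up to 19.0 CPM in midhigh dye replicate 1. The DMSO library was in turn low for TNFRSF11B, with all 20 sort libraries above it.

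**Figure D2:**
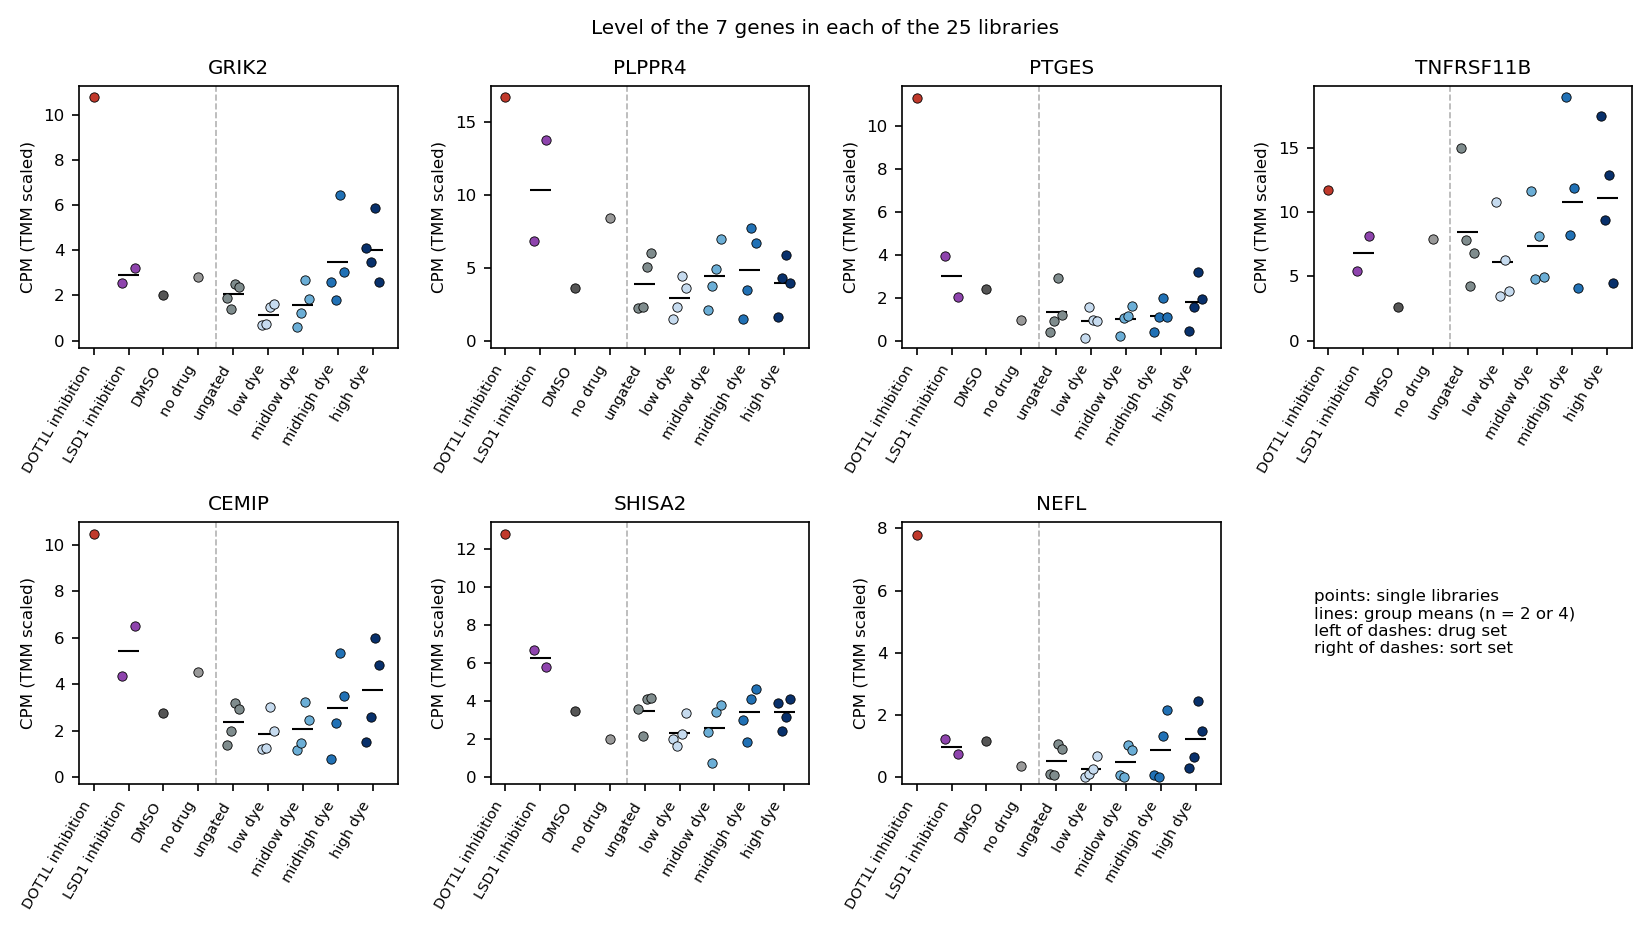
Level in TMM-scaled CPM (linear axes) of the 7 genes in each of the 25 libraries, with points for single libraries and lines for means of groups of 2 or 4. The DOT1L inhibition point is the highest in every panel but that of TNFRSF11B, where high and midhigh dye libraries reach 17.5 and 19.0 CPM.

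Per kilobase of exon, which allows levels to be set between genes, the DOT1L inhibition library held 5.98 CPM per kb of PTGES, 4.48 of SHISA2, 4.15 of TNFRSF11B, 3.01 of PLPPR4, 1.80 of NEFL, 1.42 of GRIK2 and 1.37 of CEMIP. In ungated cells the mean levels were 2.99 CPM per kb for TNFRSF11B, 1.22 for SHISA2, 0.714 for PTGES, 0.701 for PLPPR4, 0.310 for CEMIP, 0.270 for GRIK2 and 0.123 for NEFL. PTGES thus stood first of the 7 under DOT1L inhibition, but after TNFRSF11B and SHISA2 in ungated cells.

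Markers of cell types were counted beside these values. The 10 fibroblast markers summed to 10648 CPM under DOT1L inhibition, against 9658 CPM in DMSO and 10079 CPM in no drug, but LUM, COL3A1, DCN, S100A4 and THY1 were more than 2-fold higher than in DMSO. LUM (lumican) had 28.2 CPM under DOT1L inhibition, against 6.83 CPM in DMSO and 9.86 CPM in no drug. COL3A1 had 165 CPM under DOT1L inhibition, against 66.1 CPM in DMSO and 52.7 CPM in no drug. DCN (decorin) had 40.8 CPM under DOT1L inhibition, against 19.1 CPM in DMSO and 32.6 CPM in no drug. S100A4 had 220 counts under DOT1L inhibition, against 81 in DMSO and 49 in no drug, and THY1 had 30 counts under DOT1L inhibition, against 4 in DMSO and 7 in no drug. The other fibroblast markers did not rise in this way. VIM was lower under DOT1L inhibition than in DMSO (2070 against 2498 CPM), as was FAP (72.6 against 78.3 CPM). COL1A1, COL1A2 and PDGFRB were less than 2-fold higher than in DMSO. The 12 neuron markers summed to 54.3 CPM under DOT1L inhibition, against 42.3 CPM in DMSO and 35.0 CPM in no drug, and 38.7 CPM of the first sum came from SYT1. ELAVL3, ELAVL4 and DCX had 0 counts under DOT1L inhibition, and the neuron sums of the sort libraries ran from 27.5 to 62.2 CPM. The 5 melanocyte markers summed to 13.0 CPM under DOT1L inhibition (11.9 CPM from MITF, DCT at 0), against 6.58 CPM in DMSO and 7.96 CPM in no drug. Endothelial markers summed to 4.33 CPM under DOT1L inhibition (CDH5 at 0), against 2.46 CPM in DMSO and 1.59 CPM in no drug. Epithelial markers (KRT5 and KRT1 at 0) reached 2.16 CPM, Schwann cell markers (SOX10 at 0) 1.65 CPM and leukocyte markers (CD68 and LYZ at 0) 1.20 CPM under DOT1L inhibition, against 0.738, 0.615 and 0.677 CPM in DMSO. The part of these markers in the 7 differences was not tested.

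LSD1 inhibition, the other treatment of the drug set, was set against DMSO and no drug together, without a replicate block. It raised none of the 7 genes past the threshold (edgeR quasi-likelihood test, Benjamini-Hochberg adjusted p under 0.05), where 0.114% of all genes were higher. At an unadjusted p under 0.05 the edgeR count was 1 of 7, where 6.78% of all genes passed, and DESeq2 called 0 of 7, where it called 0.871% of all genes. With the replicate number as a block, edgeR called SHISA2 (adjusted p = 6.3e-08), PLPPR4 (4.0e-06), PTGES (0.0132) and CEMIP (0.0205) higher. That fit also called many more of all genes, as given under the dependence on processing. The DMSO library also chose the genes, so this comparison is not independent of the choice in either fit. SHISA2 had 105 and 94 counts (6.69 and 5.82 CPM) under LSD1 inhibition, against 57 counts (3.51 CPM) in DMSO and 33 counts (2.02 CPM) in no drug. Both treated libraries lay above both controls. The share of all genes with this order was not counted, so the order is a description only. The log2 fold change was 1.18 ± 0.29 (SE), with an edgeR adjusted p of 0.308. Without the DMSO library it was 1.62 ± 0.36 (edgeR adjusted p = 0.0014), where 1.39% of all genes were higher, with the lone control assumed to vary like the treated libraries.

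PLPPR4 had 107 and 222 counts (6.82 and 13.8 CPM) under LSD1 inhibition, against 58 counts (3.57 CPM) in DMSO and 137 counts (8.39 CPM) in no drug. TNFRSF11B had 85 and 132 counts (5.42 and 8.18 CPM) under LSD1 inhibition, against 42 counts (2.58 CPM) in DMSO and 129 counts (7.90 CPM) in no drug. For both genes the treated and control values overlapped, although in each same-numbered pair the LSD1 inhibition library was the higher. Without no drug, both passed: PLPPR4 at 1.54 ± 0.30 (edgeR adjusted p = 8.8e-05) and TNFRSF11B at 1.41 ± 0.34 (edgeR adjusted p = 0.0036), where 1.86% of all genes were higher. The lone control was then the DMSO library, in which the genes were chosen to be low, so these p-values are not independent of the choice. Without DMSO, TNFRSF11B turned to -0.22 ± 0.28. CEMIP had 68 and 105 counts (4.34 and 6.51 CPM) under LSD1 inhibition, against 45 counts (2.77 CPM) in DMSO and 74 counts (4.53 CPM) in no drug, a log2 fold change of 0.57 ± 0.33.

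PTGES had 62 and 33 counts (3.95 and 2.04 CPM) under LSD1 inhibition, against 39 counts (2.40 CPM) in DMSO and 16 counts (0.979 CPM) in no drug, a log2 fold change of 0.83 ± 0.49. GRIK2 had 40 and 52 counts (2.55 and 3.22 CPM) under LSD1 inhibition, against 33 counts (2.03 CPM) in DMSO and 46 counts (2.82 CPM) in no drug, a log2 fold change of 0.25 ± 0.29. NEFL had 19 and 12 counts (1.21 and 0.744 CPM) under LSD1 inhibition, against 19 counts (1.17 CPM) in DMSO and 6 counts (0.367 CPM) in no drug, a log2 fold change of 0.35 ± 0.58. In all 3 genes the groups overlapped, although in each same-numbered pair the LSD1 inhibition library was the higher in CPM. NEFL turned to -0.25 without no drug and to -0.04 without LSD1 inhibition replicate 1. Each of the 7 genes stood higher in the DOT1L inhibition library than in either LSD1 inhibition library, a difference between 1 and 2 libraries that has no test here. The choice of genes high in the DOT1L inhibition library favours this order, so nothing is read from the count. GRIK2 and NEFL stood at 10.8 and 7.80 CPM under DOT1L inhibition, against at most 3.22 and 1.21 CPM under LSD1 inhibition.

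The sort libraries took no part in the rule that chose the genes. Across the outer gates, GRIK2 was the 1 gene of the 7 that passed without a replicate block (edgeR, high dye against low dye), where 9.39% of all genes were higher. The replicate numbers pair these libraries, and with the number as a block 6 of the 7 were higher in high dye, where 19.8% of all genes were. In same-numbered pairs, high dye stood above low dye in 4 of 4 pairs for 6 genes and in 3 of 4 for PTGES, and 22.7% of all genes did so in 4 of 4.

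GRIK2 had 70, 65, 98 and 45 counts in high dye replicates 1 to 4, against 11, 14, 23 and 26 counts in low dye. The groups did not overlap, as 8.74% of all genes did not in this direction, and no other gene of the 7 had this separation. Its mean was 4.02 ± 1.40 CPM (SD, n = 4) over the high dye libraries, against 1.12 ± 0.49 CPM (SD, n = 4) over those of low dye. The log2 fold change was 1.85 ± 0.44 (edgeR adjusted p = 0.0077), and 1.87 ± 0.28 with the replicate block (adjusted p = 3.3e-05). The ungated libraries averaged 2.05 ± 0.51 CPM and reached 2.52 CPM, close to the lowest high dye value of 2.58 CPM.

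NEFL had the fewest counts, with 5, 12, 41 and 26 counts in high dye replicates 1 to 4, against 0, 2, 4 and 11 counts in low dye. The groups overlapped, since low dye replicate 4 stood above high dye replicates 1 and 2 in CPM, yet each pair was higher in high dye. The log2 fold change was 2.23 ± 1.15 (edgeR adjusted p = 0.190), and 2.33 ± 0.54 with the replicate block (adjusted p = 0.0020). NEFL passed the filter on low counts through libraries of every group, with 3 high dye libraries and 1 low dye library over the minimum, so that a gene low in all groups would not have been tested. PLPPR4 had 28, 79, 98 and 69 counts in high dye replicates 1 to 4, against 23, 45, 68 and 59 counts in low dye. It was the 1 gene of the 7 that did not pass in either fit, at 0.43 ± 0.50 (edgeR adjusted p = 0.590) and 0.45 ± 0.21 with the replicate block (adjusted p = 0.10).

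CEMIP had 26, 48, 100 and 84 counts in high dye replicates 1 to 4, against 19, 25, 47 and 32 counts in low dye. Its log2 fold change was 1.01 ± 0.50 (edgeR adjusted p = 0.167), and 0.97 ± 0.20 with the replicate block (adjusted p = 5.4e-04). TNFRSF11B had 298, 175, 215 and 78 counts in high dye replicates 1 to 4, against 171, 68, 97 and 63 counts in low dye. Its values were 0.87 ± 0.49 (edgeR adjusted p = 0.232) without the replicate block and 0.88 ± 0.23 with it (adjusted p = 0.0044). For both genes the high dye and low dye groups overlapped, although every same-numbered pair was higher in high dye.

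PTGES had 8, 29, 53 and 34 counts in high dye replicates 1 to 4, against 2, 31, 15 and 15 counts in low dye. Replicate 2 stood level at the outer gates, with a fold of 0.991 high over low, while the other pairs ran from 2.11 to 3.71. The log2 fold change was 0.97 ± 0.66 (edgeR adjusted p = 0.330), and 0.92 ± 0.32 with the replicate block (adjusted p = 0.0274). SHISA2 had 67, 45, 53 and 72 counts in high dye replicates 1 to 4, against 32, 32, 35 and 55 counts in low dye. It changed least of the 6 that passed with the replicate block, at 0.57 ± 0.21 (edgeR adjusted p = 0.0332), against 0.57 ± 0.38 (adjusted p = 0.320) without it.

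**Figure D3:**
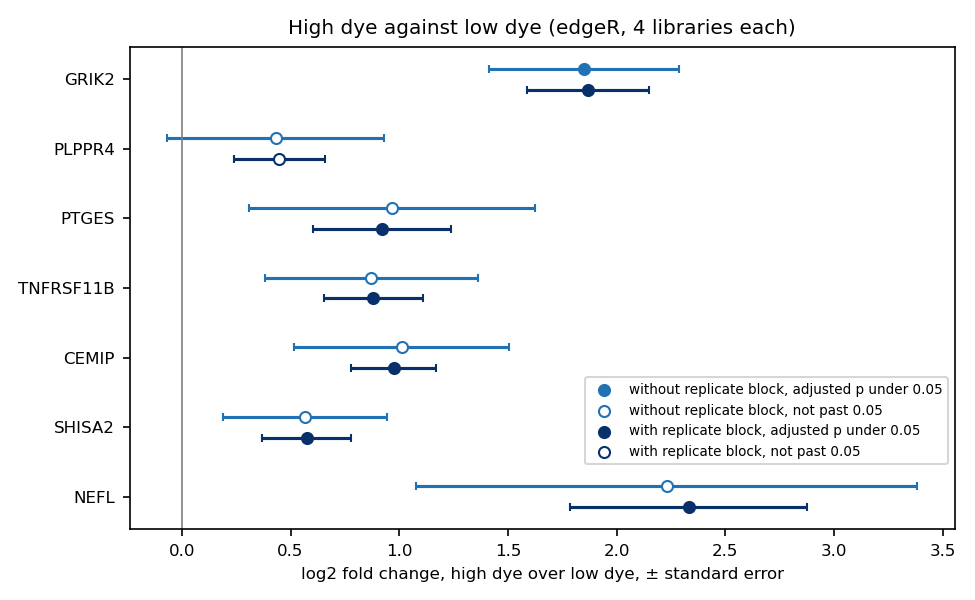
Log2 fold change of high dye over low dye with standard errors for the 7 genes from edgeR fits of 20 libraries, without (upper) and with (lower) the replicate number as a block. Filled points passed an adjusted p of 0.05; the block narrowed the errors, and PLPPR4 alone has open points in both fits.

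GRIK2 also rose over the series of gates (edgeR, linear term with gates coded 1 to 4), where 14.0% of all genes rose, at a log2 slope of 0.67 ± 0.14 per gate (adjusted p = 0.0028). GRIK2 averaged 2.05 ± 0.51 CPM in ungated cells, 1.12 ± 0.49 CPM in low dye, 1.58 ± 0.89 CPM in midlow dye, 3.48 ± 2.05 CPM in midhigh dye and 4.02 ± 1.40 CPM in high dye (SD, n = 4 each). Neighbouring gates differed by no more than the larger of their SDs. With the replicate block, 6 of 7 genes had a rising slope, where 23.1% of all genes did: GRIK2 (edgeR adjusted p = 1.2e-05), TNFRSF11B (6.4e-05), CEMIP (1.1e-04), NEFL (8.0e-04), PTGES (0.0104) and SHISA2 (0.0133). PLPPR4 did not pass, at 0.13 ± 0.07 with the block (adjusted p = 0.162). Without the block, CEMIP passed once high dye replicate 1 was left out (0.43, edgeR adjusted p = 0.0486), where 10.7% of all genes rose, and TNFRSF11B once high dye replicate 4 was (0.40, edgeR adjusted p = 0.0410), where 14.6% did.

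The other genes followed several shapes over the gates. TNFRSF11B averaged 8.47 ± 4.59 CPM in ungated cells, 6.10 ± 3.36 in low, 7.40 ± 3.24 in midlow, 10.8 ± 6.34 in midhigh and 11.1 ± 5.49 in high dye (SD, n = 4 each). CEMIP averaged 2.37 ± 0.83 CPM in ungated cells, 1.87 ± 0.85 in low, 2.08 ± 0.93 in midlow, 2.98 ± 1.92 in midhigh and 3.73 ± 2.04 in high dye. PLPPR4 averaged 3.89 ± 1.90 CPM in ungated cells, 2.94 ± 1.32 in low, 4.42 ± 2.04 in midlow, 4.82 ± 2.88 in midhigh and 3.93 ± 1.75 in high dye. PLPPR4 thus had its highest mean at midhigh, while TNFRSF11B and CEMIP had theirs at high dye. SHISA2 averaged 3.50 ± 0.95 CPM in ungated cells, 2.32 ± 0.76 in low, 2.59 ± 1.37 in midlow, 3.41 ± 1.23 in midhigh and 3.41 ± 0.77 in high dye. PTGES averaged 1.35 ± 1.09 CPM in ungated cells, 0.899 ± 0.59 in low, 1.00 ± 0.58 in midlow, 1.14 ± 0.66 in midhigh and 1.79 ± 1.12 in high dye. NEFL averaged 0.531 ± 0.52 CPM in ungated cells, 0.259 ± 0.30 in low, 0.485 ± 0.53 in midlow, 0.884 ± 1.04 in midhigh and 1.22 ± 0.97 in high dye. In these 6 genes every step between neighbouring gates was smaller than the larger SD. In same-numbered pairs, midhigh stood above midlow dye in 4 of 4 for GRIK2 and SHISA2, in 3 of 4 for TNFRSF11B, CEMIP and PTGES and in 1 of 4 for PLPPR4. NEFL had 0 counts at both of these gates in replicate 2 and 1 count at each in replicate 1, and stood higher at midhigh in replicates 3 and 4. The share of all genes with such pairs at these gates was not counted, so these pair counts are a description only.

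**Figure D4:**
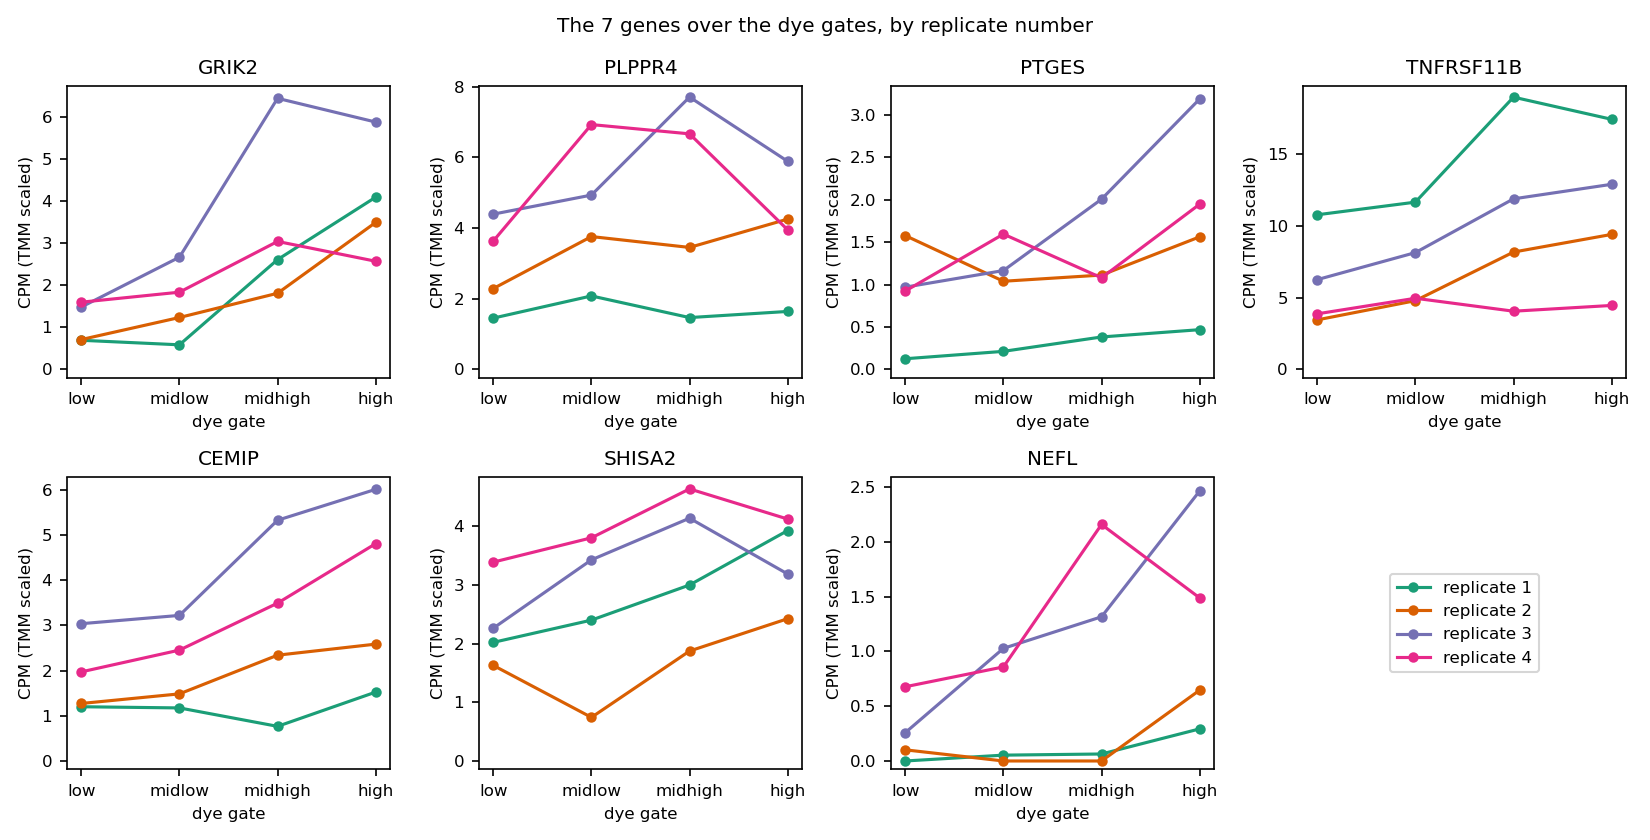
Level in TMM-scaled CPM of the 7 genes at the low, midlow, midhigh and high dye gates, with 1 line per replicate number. Replicate 1 lies above the others for TNFRSF11B and beneath them for PLPPR4, PTGES and CEMIP, and each GRIK2 line ends higher at high dye than it starts at low dye, though replicate 1 steps down at midlow and replicates 3 and 4 step down after midhigh.

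Part of the spread went with the replicate number. TNFRSF11B averaged 14.8 CPM over the 5 replicate 1 libraries (10.8 to 19.0), and 6.74, 8.70 and 4.83 CPM over those of replicates 2, 3 and 4. PLPPR4 ran the other way, at 1.78 CPM in replicate 1 and 3.21, 5.59 and 5.43 CPM in replicates 2, 3 and 4. NEFL averaged 0.105 and 0.160 CPM in replicates 1 and 2, but 1.22 CPM in each of replicates 3 and 4. The labels do not say what a replicate number shares.

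High dye against ungated cells gave 0 of 7 calls with edgeR, where 0.00685% of all genes were called, and DESeq2 also called 0 of 7, where it called 0.130% of all genes. At an unadjusted p under 0.05 the edgeR count was 1 of 7, where 10.6% of all genes passed. GRIK2 had 70, 65, 98 and 45 counts in high dye replicates 1 to 4, against 33, 26, 38 and 40 counts in ungated cells. Its log2 fold change was 0.98 ± 0.41, with an edgeR adjusted p of 0.439. With the replicate block it passed (0.97 ± 0.26, edgeR adjusted p = 0.0264), where 3.66% of all genes were higher. CEMIP (0.60 ± 0.19, adjusted p = 0.0553) and NEFL (1.36 ± 0.48, adjusted p = 0.0847) did not pass in that edgeR fit. PLPPR4 and SHISA2 lay at 0.04 ± 0.20 and -0.01 ± 0.20 with the block. The neuron marker sums beside these values were 30.5 to 62.2 CPM in high dye, 27.8 to 47.0 CPM in low dye and 27.5 to 60.2 CPM in ungated cells, and fibroblast sums 8213 to 10352 CPM in high dye and 6402 to 8724 CPM in low dye. Their part in the results was not tested.

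Genes with the most similar levels were looked up over the 20 sort libraries, among 14592 genes, as a description without a test, since these libraries share gates and replicate numbers. GRIK2 was most like TGFB2 (Pearson r = 0.946), a TGF-beta ligand, and CEMIP2 (0.934), a hyaluronidase related to CEMIP. TNFRSF11B was most like APBA1 (0.956) and SEL1L3 (0.946), and PLPPR4 most like the transcription factor gene TCF21 (0.931) and the receptor kinase gene KIT (0.919). PTGES was most like JAG1 (0.923), a Notch ligand, and NOTCH3 (0.911), a Notch receptor. CEMIP was most like SGIP1 (0.927) and the integrin gene ITGA1 (0.926). NEFL was most like SYNPO2 (0.936) and HLA-B (0.930). SHISA2 had the lowest likeness, with LOX (0.880), the collagen cross-linking enzyme, and LINC02783 (0.849).

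Related genes of each family or pathway were set beside the 7, as counts of those at least 2-fold higher or lower under DOT1L inhibition than in DMSO. Of all genes, 4.31% were at least that much higher and 1.04% at least that much lower. A gene counted as measured if any drug library reached the filter's minimum, so some entered through the DOT1L inhibition library alone. PTGS1 did so, with 14 counts there, 5 counts in DMSO, 4 counts in no drug and at most 8 counts under LSD1 inhibition. Such genes are high in that library by selection, so nothing is read from these counts. Among the glutamate receptor genes, 3 of 7 measured were higher and 0 lower, with a median log2 ratio of 0.83, against a median of 0.00 over all genes. They included GRIA4 (15 counts under DOT1L inhibition, 2 counts in DMSO) and GRIN2D (39 counts under DOT1L inhibition, 17 counts in DMSO), whereas the auxiliary subunits NETO1 and NETO2 had log2 ratios of -0.27 and -0.10. Among the intermediate filament genes, 2 of 9 were higher and 0 lower, with a median of 0.72. NES, the nestin gene, had 168 counts (9.56 CPM) under DOT1L inhibition, against 26 counts (1.60 CPM) in DMSO and 26 counts (1.59 CPM) in no drug. INA, the alpha-internexin gene, had 109 counts (6.21 CPM) under DOT1L inhibition, against 28 counts (1.72 CPM) in DMSO and 21 counts (1.29 CPM) in no drug. NEFM, the neurofilament partner of NEFL, singled out after its values were seen, had 623 CPM under DOT1L inhibition, against 378 CPM in DMSO and 160 CPM in no drug. The fibroblast filament VIM had a log2 ratio of -0.27.

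Of the prostaglandin genes, 2 of 14 were higher (PTGER2, a receptor for prostaglandin E, at a log2 ratio of 1.45, and PTGS1 at 1.09 from 14 and 5 counts) and 0 lower, with a median of 0.09. PTGS2, the inducible cyclooxygenase upstream of PTGES, stood at 74.6 CPM under DOT1L inhibition, against 69.8 CPM in DMSO. PTGES3, the most abundant of the list, stood at 311 CPM under DOT1L inhibition, against 365 CPM in DMSO. Of the genes for receptors of osteoprotegerin's ligands, TRAF6 included, 1 of 7 was higher (TNFRSF10C, 11 and 2 counts) and 0 lower, with a median of 0.19. The ligand genes TNFSF11 and TNFSF10 did not pass the filter on low counts. The decoy receptor gene TNFRSF10D and the receptor gene TNFRSF10B, the most abundant of that list, had log2 ratios of 0.19 and -0.28. Of the hyaluronan genes, 1 of 11 was higher (TNFAIP6, 11 and 2 counts) and 0 lower, with a median of 0.17. CD44, the hyaluronan receptor, and VCAN had log2 ratios of -0.43 and 0.04. The lipid phosphate phosphatase list also holds LPAR genes, for receptors of lysophosphatidic acid, and ENPP2, which are not phosphatases of this family. Of its measured genes, 2 of 10 were higher (LPAR3, 27 and 7 counts, and PLPPR5, 24 and 10 counts) and 0 lower, with a median of 0.34. LPAR1 and PLPP3, the most abundant of that list, had log2 ratios of 0.02 and 0.43. SHISA4 and SHISA5, the measured SHISA genes, had log2 ratios of 0.29 and 0.26.

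**Figure D5:**
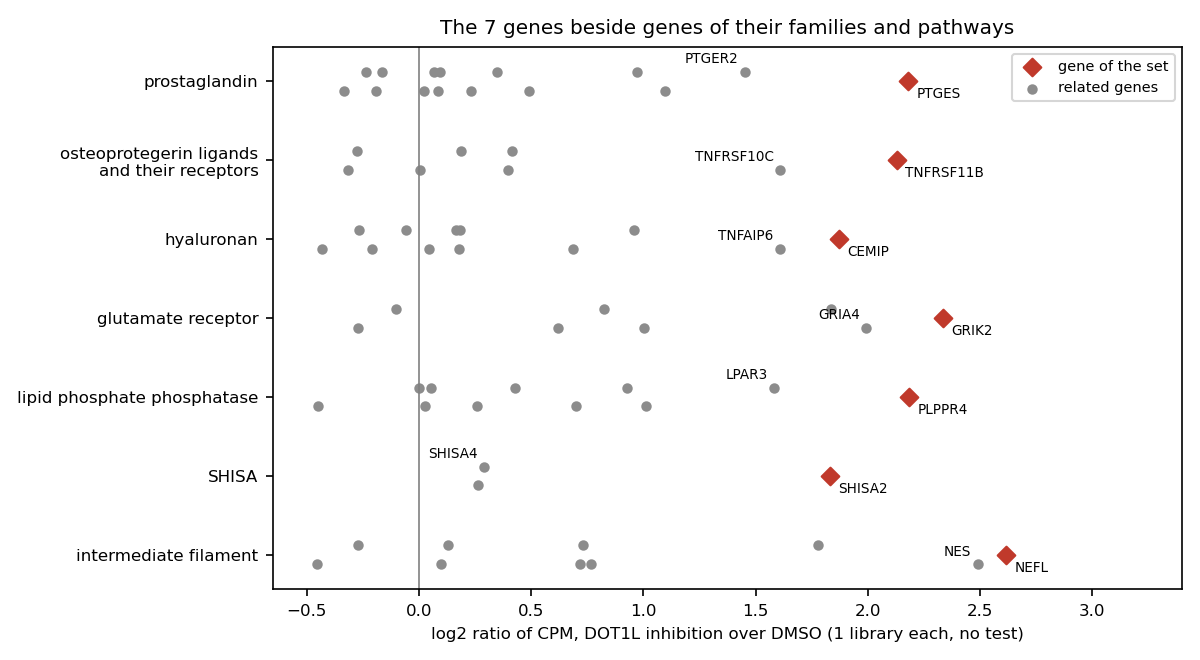
Log2 ratio of CPM under DOT1L inhibition over DMSO (prior count 2, 1 library each, no test) for the 7 genes (diamonds) and the measured genes of their families and pathways (circles), 1 row per list. In each row the gene of the set lies to the right of its relatives, which its choice favours, and NES at 2.49 comes nearest to its set gene NEFL. The lipid phosphate phosphatase row also holds LPAR receptor genes and ENPP2. The osteoprotegerin row holds receptor genes and TRAF6, but no ligand gene.

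Between the outer gates, the 7 lists held genes that rose and genes that fell (edgeR without the block, adjusted p under 0.05, where 9.39% of all genes were higher and 8.35% lower). Of 13 prostaglandin genes, 3 rose (PTGIR at 1.54 ± 0.34, PTGR1 and PTGFR) and 3 fell (PTGER4 at -0.68 ± 0.12, ABCC4 and PTGES3) in high dye, with a median log2 fold change of 0.07, against 0.01 over all genes. Of 6 genes for receptors of osteoprotegerin's ligands, TRAF6 included, 3 rose (the TRAIL receptor genes TNFRSF10D at 0.87 ± 0.20, TNFRSF10A and TNFRSF10B) and 0 fell. The ligand genes were not tested, as they did not pass the filter. Of 9 genes in the list of lipid phosphate phosphatases, LPAR receptors and ENPP2, 3 rose (the receptor gene LPAR2 at 1.41 ± 0.30, PLPPR2 and PLPP1) and 0 fell. Of 11 hyaluronan genes, CEMIP2 rose (0.63 ± 0.13) and HMMR fell (-0.74 ± 0.25). Of 7 glutamate receptor genes, GRIA3 rose and NETO2 fell (-0.49 ± 0.12). GRIA3 had 5 to 18 counts in high dye and 0 to 1 count in low dye, so no fold is given. SHISA4 rose (0.86 ± 0.23), and of 9 intermediate filament genes LMNB1 fell (-0.83 ± 0.25) and 0 rose. In all 7 lists 12 of 57 genes rose and 6 fell without the replicate block, and with it 19 rose and 12 fell, where 19.8% of all genes were higher and 17.4% lower. Among the calls gained with the block, NEFM rose (log2 fold change 0.63, edgeR adjusted p = 8.5e-05) and VIM fell (-0.25, edgeR adjusted p = 0.0025). Under LSD1 inhibition, 0 genes of the 7 lists passed with edgeR, where 0.114% of all genes did. The intermediate filament list had a median log2 fold change of 0.94 there, against 0.00 over all genes.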

How the data were processed

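Bulk poly(A) RNA-seq of 25 hiF-T libraries was used. Per the labels, libraries were made with NEBNext kits; per the submitters' processing notes, the authors used STAR and HTSeq on hg38 (GRCh38), with versions and annotation release not given in the sources used here. The authors deposited raw counts for each Ensembl gene, in 1 file per library, with reads that were not counted (11.95% to 14.9%) left out here. A series-wide table in long form, equal to the files in 100% of values, was not used. Gene names came from a reference table (57532 of 58302 IDs matched), coordinates and exon lengths from GENCODE 29.

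Tests on the counts used edgeR 4.0.16 under R 4.3.3 (glmQLFit, glmQLFTest, TMM, filterByExpr with a minimum count of 10 and a minimum total of 15, Benjamini-Hochberg over all genes tested, threshold 0.05). All 20 sort libraries shared 1 fit for the outer gates and for high dye against ungated, the trend used the 16 gated libraries, and LSD1 inhibition the 4 libraries compared. All 7 genes passed each filter. DESeq2 1.42.0, RLE scaling, no filter, a replicate block and leaving out each library were alternatives. The scripts were tested on simulated data. With 1 DOT1L inhibition library, folds carry counting intervals only (exact, 95%). The labels call replicates biological, without naming cultures. In the sort set every one of 40 same-numbered pairs of libraries deviated together from the group means (correlation 0.146 to 0.618). Of 120 differently numbered pairs, 16 were over 0.1, so the numbers were taken to pair those libraries. Deviations from a group mean cancel out within the group, so both counts are linked, and the choice of the block used these same data. The named genes are the 7, the 2 most similar genes of each, and in each related list those past a threshold and the 2 most abundant. A related gene that the rule names is not reported here. The 7 genes and the lists were chosen with earlier results of these data known.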

Additional observations from a re-analysis of the deposited data

How the results depend on the processing

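Of 385 values recomputed for single genes of the 7 in the 4 tested comparisons, 353 kept their sign and their side of the threshold, 20 newly passed and 12 changed sign, while no call was lost. GRIK2 between the outer gates and its trend passed under every alternative run. The replicate block raised the genes called to 5433 (from 2589) between the outer gates, 6317 (from 3784) for the trend and 1107 (from 1) against ungated. It raised the calls among the 7 genes, all higher, to 6, 6 and 1, where 19.8%, 23.1% and 3.66% of all genes were higher. For LSD1 inhibition the drug set has only 2 same-numbered pairs (correlation 0.475), so the numbers were not taken to pair libraries. The replicate block there moved the calls to 2242 of 14002 genes tested (1274 higher, from 16) and to 4 of the 7. Of 53 genes in the related lists it moved them to 12 higher and 8 lower, against 0 without it.

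Fitting only the 8 compared libraries gave 1497 genes between the outer gates and 0 against ungated (942 at an unadjusted p under 0.05). Without a filter, 25 genes were called against ungated, 0 for LSD1 inhibition (1119 at an unadjusted p under 0.05), and 1354 genes (from 646) were at least 2-fold higher under DOT1L inhibition than in DMSO. DESeq2 called 19 genes against ungated and 122 for LSD1 inhibition.

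Leaving out each library in turn gave 1255 (without high dye replicate 3) to 2965 genes between the outer gates, with 1519 without high dye replicate 1. It gave 2514 (without high dye replicate 3) to 4149 genes for the trend and 0 to 6 (without high dye replicate 4) against ungated. For LSD1 inhibition it gave 108 (without LSD1 inhibition replicate 1) to 331 genes (without no drug), with 131 without LSD1 inhibition replicate 2 and 232 without DMSO. Calls among the 7 ranged over 1 to 2 for the trend and 0 to 2 for LSD1 inhibition. Log2 fold changes ranged over -0.23 to 0.31 for PLPPR4, -0.00092 to 1.10 for PTGES and -0.21 to 0.11 for SHISA2 against ungated, and over -0.22 to 1.41 for TNFRSF11B and -0.25 to 1.38 for NEFL under LSD1 inhibition. The cause was not tested. Putting all 5 drug libraries in 1 fit, chosen after seeing the data, gave 22 genes and 0 of the 7 for LSD1 inhibition. NEFL and PTGES had 0 to 5 counts in some libraries, which limits their precision, and the DOT1L inhibition values rest on a single library.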
